A study of Homo sapiens with 9 samples.

Results

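Macrophages sorted from a coculture as close to breast cancer cells were compared with macrophages kept without tumour cells. Both came from THP-1, a human monocytic leukaemia line that stops dividing and takes on macrophage features when treated with the phorbol ester PMA. Per the labels, THP-1 cells received 250 nM PMA for 48 h. The proximal macrophages were then cultured for 24 h with MDA-MB-231, a triple-negative human breast cancer line made HER2-positive here, and the monocultured macrophages grew alone. The labels differ on the mix, with 20 macrophages for each tumour cell in one place and 40 in another. In the coculture, an affibody against HER2 fused to beta-galactosidase was placed on the tumour cells, and the enzyme released a quinone-methide biotin probe that attaches to proteins nearby. Macrophages with a high biotin signal formed the proximal gate and those with a low signal the distal gate. All cells of the comparison had been exposed to PMA. Each group is 1 cell line, and the culture has no other host cells. No label says in words which deposited table belongs to which gate; the tables carry the letters H, L and M, read here as high, low and monocultured. The coculture received the enzyme for 30 min, the probe for 10 min and streptavidin for 30 min. The sources used here do not say whether the monocultured cells were labelled and sorted likewise. For these cells no time of culture after PMA is recorded here, so the groups may differ in more than the presence of tumour cells.

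The comparison rests on 6 of the 9 libraries, 3 proximal and 3 monocultured, and on the 15427 gene names that passed the filter on low counts, of 61180 listed. Genes were named by a rule on size, p-value and level, and further members of the gene lists were added after their values were seen, to show each group by role. Values are CPM, counts per 1000000 counted read pairs, corrected by TMM factors. Fold changes are on the log2 scale with their standard error, and a gene was called where edgeR's adjusted p was under 0.05 over all genes tested. The 9 libraries held 13581994 to 16447199 counted pairs, and mitochondrial genes took 3.17% to 4.05% of them in proximal and 3.31% to 3.80% in monocultured libraries. Pearson correlations of log2 CPM were 0.9817 to 0.9889 within the proximal group, 0.9889 to 0.99 within the monocultured group and 0.9235 to 0.9346 between them. The first principal component of these 6 libraries held 78.5% of the variance and separated the groups, and the second, with 8.74%, set proximal replicate 3 apart from the others. Nothing says that the 3 libraries of a group came from separate cultures, so the p-values measure the spread between these samples, which may be technical.

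A macrophage reads its surroundings through receptors for microbial products, dead cells, antibodies and cytokines. NF-kappaB, STAT, AP-1 and interferon regulatory factors then set which cytokines it secretes, while C/EBP, MAF, LXR and PPAR factors set its lineage, lipid handling and clearance functions. In tumours, macrophages are known for both inflammatory and tissue-remodelling programmes, and for changes in glucose, lipid and amino acid use.

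Genes of secreted cytokines and growth factors, of NF-kappaB signalling, of the mature dendritic cell programme, of metallothioneins and of glycolysis were mostly higher in the proximal cells. Genes of phagocytic and scavenger receptors, lipid handling, lysosomes, the respiratory chain, the type I interferon response, protein folding and the cell cycle were mostly lower. In all, 3455 genes were higher (22.4% of those tested) and 3565 were lower (23.1%). Counts of list and family members below are to be read against these shares. The lists and their members were chosen with earlier results of these data known, so their counts and ranks are description only. The median change among the calls was 0.79 and -0.90 on the log2 scale, and 1324 rises and 1587 falls were at least 2-fold. At least 16-fold differences were found for 91 genes in the upward and 74 in the downward direction. Of the calls, 3310 higher and 3439 lower ones had no overlap between the 3 proximal and the 3 monocultured libraries. The calls were made with these same libraries, so the counts without overlap are description and no separate evidence for the calls. The share without overlap among all genes tested is not given here. The median over all genes tested was 0, with quartiles at -0.44 and 0.39. Without proximal replicate 3, 3836 genes were higher and 3981 lower.

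**Figure D1:**
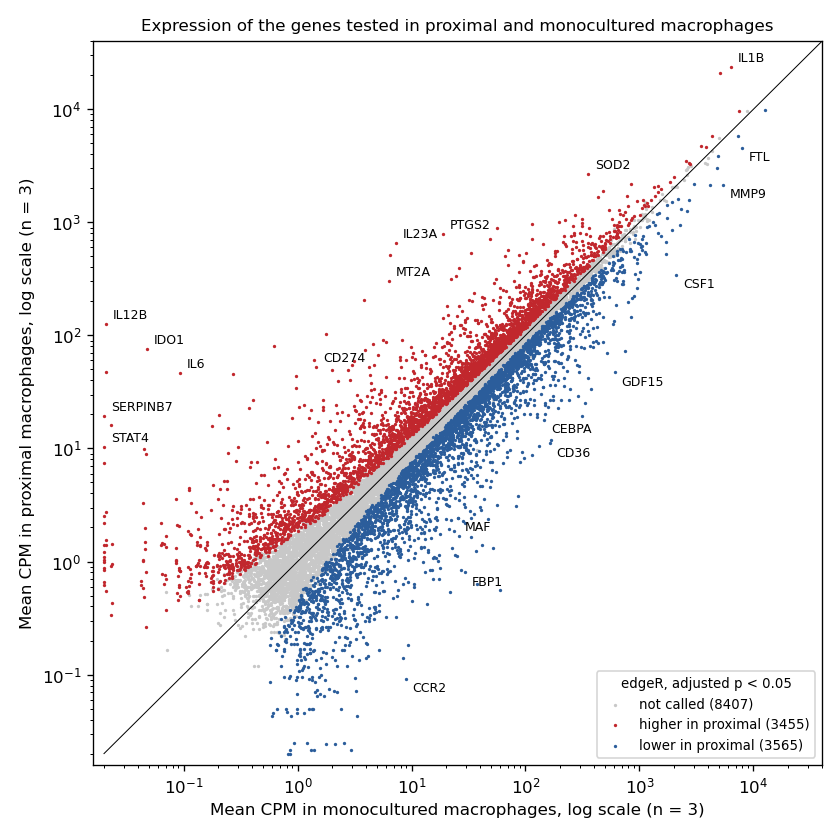
Mean CPM of each of the 15427 genes tested in the 3 monocultured (horizontal axis) and the 3 proximal libraries (vertical axis), both on log scales, with means under 0.02 drawn at 0.02 and the line of equality in black. Red points are the 3455 genes called higher and blue points the 3565 called lower in proximal cells. IL12B, IDO1 and IL6 lie far above the line from a monocultured level near 0, whereas IL1B rose from a level that was already high.

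What the proximal sort holds besides macrophages was read from marker genes. ERBB2, the HER2 receptor carried by the tumour cells (chromosome 17, 39687914 to 39730426, plus strand), was at 19.1, 15.1 and 17.6 CPM in proximal replicates 1 to 3 and at 1.8, 1.64 and 1.13 CPM in the monocultured ones. All 3 proximal libraries were above all 3 monocultured ones (log2 fold change 3.50 ± 0.22, edgeR adjusted p = 1.03e-08). The distal libraries were higher still, at 43.2, 30.9 and 45.3 CPM (proximal minus distal -1.20 ± 0.16, edgeR adjusted p = 1.85e-04). The 28 listed markers of the tumour line summed to 2046 to 2344 CPM in proximal and 2002 to 2095 CPM in monocultured libraries (log2 ratio 0.11, two-sided exact permutation p = 0.3, where 0.1 is the smallest that 3 against 3 allows). NT5E and LAMC1, which THP-1 macrophages also expressed in monoculture at 656 and 263 CPM, made up much of that sum. Both were called higher in proximal cells, at 1277 and 454 CPM. Without both, the sum was lower in proximal cells, at 486.8 ± 20.2 against 1134 ± 53.6 CPM (log2 ratio -1.22, exact permutation p = 0.1). TGM2, an enzyme that cross-links proteins, supplied 957 CPM of the monocultured and 263 CPM of the proximal sum. Macrophages in monoculture thus expressed TGM2 above NT5E and LAMC1, yet it was kept. Its fall was larger than that of the whole sum, so the lower sum does not show less tumour marker signal in proximal cells. Of the 21 measured markers 10 rose (47.6%, against 22.4% over all genes tested) and 5 fell (23.8%, against 23.1%), with a median log2 fold change of 0.77. With a filter of 50 counts in 3 libraries, 3 fell. Among the rises were EGFR (2.36 to 17.3 CPM), CAV1 (5.86 to 20.9 CPM), YAP1 (5.36 to 16.6 CPM) and LAMB3 (11.5 to 40.5 CPM). KRT18, KRT5, EPCAM and MSLN had 0 counts in all 6 libraries. No library of the tumour line alone was measured, so these counts of 0 do not show that tumour cells were absent. The 9 listed keratin and epithelial junction genes, 3 of them at 0 throughout, summed to 12.13, 11.79 and 10.97 CPM in proximal and 5.676, 6.39 and 6.414 CPM in monocultured libraries, with no overlap (log2 ratio 0.92, exact permutation p = 0.1). The part of tumour cell RNA in the rises below was not tested. In these bulk libraries, fewer cells of a type and less RNA per cell cannot be told apart.

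The macrophage label was checked against 16 identity genes, of which 14 were measured. Their summed level was 6447 ± 218 CPM in proximal and 6668 ± 344 CPM in monocultured cells (exact permutation p = 0.4). SPI1, the myeloid factor PU.1, was at 376, 351 and 546 CPM in proximal and 478, 408 and 380.5 CPM in monocultured libraries, which overlapped. CSF1R, the receptor for macrophage colony-stimulating factor, remained abundant while it fell from 2170.2 to 1609 CPM. Of the 14, 5 rose and 7 fell, and 3 rose without proximal replicate 1, proximal replicate 2 or monocultured replicate 1. CD86, a costimulatory ligand, rose from 3.02 to 10.6 CPM, and LYZ, lysozyme, fell from 19.4 to 6.15 CPM. CD68 could not be measured: only 14.4% of its exonic bases are free of other genes, and pairs overlapping several genes were left out of the deposited counts. AIF1 lies on 6 sequences of the annotation and had 10 proximal and 8 monocultured counts in all, so it was not measured either.

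Promoters are shown for 4 cytokine and signalling genes that rose strongly, because short motifs of the factors named above lie in them. Each run is the 250 bases before the gene's start in RefSeq (GRCh38.p14), 5′ to 3′ on the gene's strand, and capitals mark the motif. Gene spans given elsewhere in the text come from the annotation used for the counts, whose starts can differ. The run of IL6 lies inside the span given for that gene, and the run of CXCL8 reaches into its span.
IL6, chr7:22726950-22727199, plus strand: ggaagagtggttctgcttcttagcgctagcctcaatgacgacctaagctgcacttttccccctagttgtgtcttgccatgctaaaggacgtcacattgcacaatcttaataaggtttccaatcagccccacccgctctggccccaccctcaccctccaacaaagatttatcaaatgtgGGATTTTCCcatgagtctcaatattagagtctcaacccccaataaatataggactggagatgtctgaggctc
CXCL8, chr4:73740319-73740568, plus strand: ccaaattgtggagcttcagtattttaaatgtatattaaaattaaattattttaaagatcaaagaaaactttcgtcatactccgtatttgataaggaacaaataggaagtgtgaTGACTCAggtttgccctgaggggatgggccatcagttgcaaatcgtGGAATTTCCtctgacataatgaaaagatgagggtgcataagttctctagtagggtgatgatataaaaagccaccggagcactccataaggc
NFKBIZ, chr3:101827740-101827989, plus strand: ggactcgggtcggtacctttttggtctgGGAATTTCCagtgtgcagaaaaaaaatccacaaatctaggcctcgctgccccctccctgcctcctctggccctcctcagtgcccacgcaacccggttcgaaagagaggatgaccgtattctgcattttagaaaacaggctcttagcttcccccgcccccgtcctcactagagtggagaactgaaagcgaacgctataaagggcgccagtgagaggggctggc
IL23A, chr12:56338634-56338883, plus strand: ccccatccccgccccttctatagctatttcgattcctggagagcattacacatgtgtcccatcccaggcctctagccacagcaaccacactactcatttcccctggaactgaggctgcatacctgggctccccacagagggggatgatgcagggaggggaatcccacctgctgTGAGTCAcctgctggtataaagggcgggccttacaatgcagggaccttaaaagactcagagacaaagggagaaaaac
The capitals in IL6 and NFKBIZ are a kappaB-type motif, written GGANTTTCC or on the other strand GGAAANTCC. CXCL8 holds an AP-1-type motif, TGANTCA, and then a kappaB-type one, and IL23A holds an AP-1-type motif.

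Across promoters of 300 bases that reach 50 bases past the start, the kappaB-type motif was present in 5.91% of the 254 found among the 466 genes at least 4-fold higher, in 0.87% of the 345 found among the 572 at least 4-fold lower, and in 1.65% of the 10544 found among all genes tested. For the AP-1-type motif the shares were 14.2%, 6.67% and 4.71%. For a GAS-type motif, TTCNNNGAA, which STAT dimers bind, they were 13%, 6.09% and 6.45%. An ISRE-type motif, AAANNGAAA or TTTCNNTTT, was in 10.6%, 8.99% and 7.43%. Both strands were searched and motifs may overlap. These shares describe letters in a window and carry no test. The sets at least 4-fold apart were chosen for this after the calls were known. Among the 12 promoters found for the 15 largest rises, 1 held the kappaB-type (IL6), 2 the GAS-type (SERPINB7 and SHROOM3) and 2 the AP-1-type motif (IL23A and STAT4).

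Interleukins and colony-stimulating factors had the highest median among the lists, which were chosen with earlier results of these data known. Of the 25 measured members 18 rose, 3 fell and 4 did not pass the test (median log2 fold change 1.94). IL6, an inflammatory cytokine that signals through STAT3 (chromosome 7, 22725884 to 22732002, plus strand), was at 44.2, 46 and 49.2 CPM in proximal and 0.208, 0.0711 and 0 CPM in monocultured libraries. IL6 was therefore near absent in monoculture and the groups lay far apart (log2 fold change 8.88 ± 0.29, edgeR adjusted p = 2.93e-11). IL12B, the p40 chain shared by IL-12 and IL-23, was at 132, 127 and 119 CPM in proximal libraries. Its monocultured libraries held 1 read pair in total, which gives a ratio of 5576 with a counting interval (95%, exact) of 1000 to 220300. IL23A, the p19 chain that pairs with p40, was at 8.95, 6.76 and 6.42 CPM in monocultured libraries. It rose to 623, 641 and 712 CPM in proximal ones (log2 fold change 6.48 ± 0.15, edgeR adjusted p = 1.68e-12). IL12A, the other partner of p40, was at 0.978 and 0.792 CPM and did not pass the test. EBI3, the beta chain of IL-27 and IL-35, rose from 33.3 to 535 CPM.

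IL-1 family members moved in both directions. IL1B, the main secreted IL-1 of macrophages (chromosome 2, 112829751 to 112836816, minus strand), gained more CPM than any other called gene. It was at 24225, 23746 and 22947 CPM in proximal and 6145, 6578 and 6212 CPM in monocultured libraries. The lowest proximal library was thus well above the highest monocultured one (log2 fold change 1.91 ± 0.07, edgeR adjusted p = 3.66e-11). IL1A (24.4 to 338 CPM), the alarmin IL33 (2.79 to 49.2 CPM) and IL36G, an epithelial-type member of the family (0.206 to 19.9 CPM), rose more steeply on the log2 scale (by 3.79, 4.13 and 6.55). The receptor antagonist IL1RN moved the other way, from 1065 to 759 CPM (log2 fold change -0.49 ± 0.07, edgeR adjusted p = 7.35e-05), and IL18 fell from 12.7 to 5.97 CPM.

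Colony-stimulating factors moved in both directions. CSF3, which drives granulocyte production, was at 199, 217 and 207 CPM in proximal and 4.51, 4.27 and 2.77 CPM in monocultured libraries (log2 fold change 5.76 ± 0.14, edgeR adjusted p = 2.50e-12). CSF2, or GM-CSF, rose from 5.61 to 92 CPM (log2 fold change 4.04 ± 0.12, edgeR adjusted p = 1.08e-11). CSF1, the growth factor of macrophages themselves, was high in monoculture at 2230.0, 2140.0 and 1934 CPM and stood at 346, 303 and 379 CPM in proximal cells. Its groups did not overlap, and it was among the 12 genes that lost the most CPM (log2 fold change -2.62 ± 0.11, edgeR adjusted p = 1.57e-10).

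Growth factors and morphogens rose more often than they fell. Of the 25 measured members 14 rose, 3 fell and 8 did not pass the test (median 0.85). INHBA, the activin A chain, was at 433, 453 and 377 CPM against 66.4, 70.9 and 73.6 CPM in monoculture (log2 fold change 2.58 ± 0.09, edgeR adjusted p = 6.65e-11). INHBB, the activin B chain, was among the largest falls, from 5.18 to 0.165 CPM, so the 2 activin chains moved in opposite directions. VEGFA, which drives blood vessel growth, rose from 222 to 637 CPM, VEGFC from 5.39 to 32.7 CPM and FGF2 from 1.69 to 26.8 CPM. VEGFB was at 47.3 and 49.7 CPM and was not called (log2 fold change -0.07 ± 0.14, edgeR adjusted p = 0.718). BMP6, which induces hepcidin, rose from 20.3 to 87.9 CPM, BMP2 from 3.55 to 27.1 CPM and the non-canonical Wnt ligand WNT5A from 8.01 to 52.3 CPM (log2 fold change 2.7 ± 0.14, edgeR adjusted p = 2.45e-09). NRG1, a ligand of ERBB3 and ERBB4, rose from 265 to 765 CPM (log2 fold change 1.53 ± 0.08, edgeR adjusted p = 2.51e-09), while AREG, a ligand of EGFR, fell from 192 to 57.8 CPM (log2 fold change -1.73 ± 0.09, edgeR adjusted p = 1.22e-09). GDF15, a stress-responsive TGF-beta relative, was at 48.2, 42.5 and 50.7 CPM in proximal and 690.4, 622 and 503 CPM in monocultured libraries. All 3 proximal values lay under all monocultured ones (log2 fold change -3.68 ± 0.13, edgeR adjusted p = 3.40e-11).

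**Figure D2:**
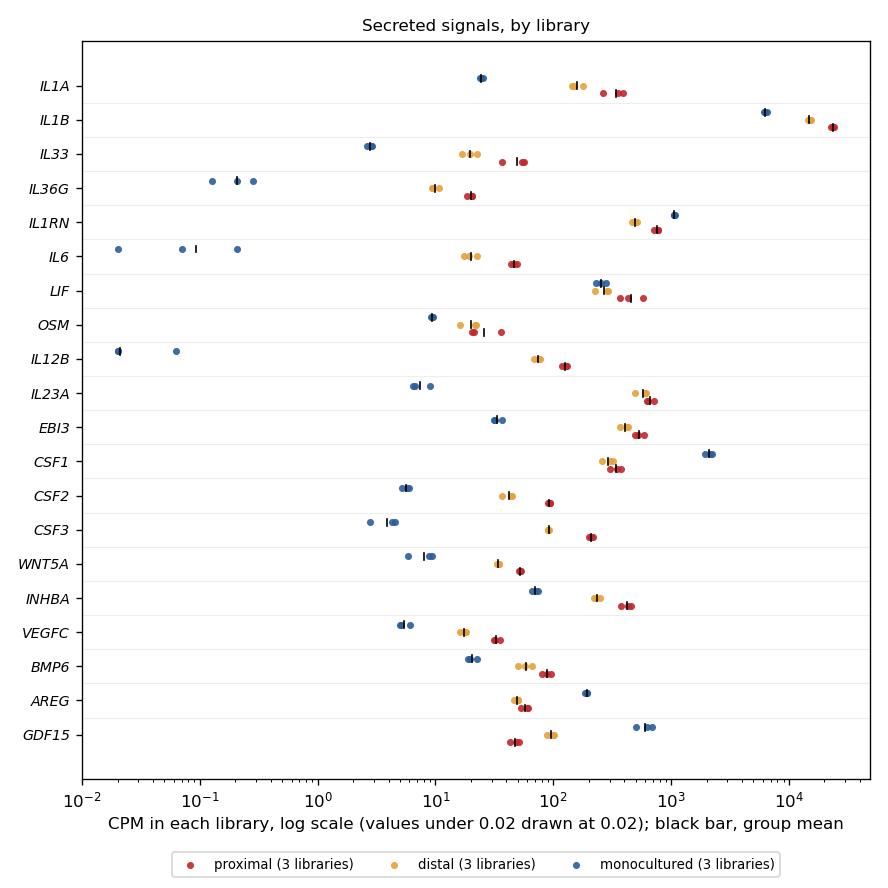
CPM on a log scale for 20 secreted signals in each of the 9 libraries (1 point per library, black bars the group means, values under 0.02 drawn at 0.02). IL6, IL12B and IL36G start near the floor in the monocultured libraries (blue), while CSF1, AREG, GDF15 and IL1RN lie lower in the proximal libraries (red) than in the monocultured ones.

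TNF superfamily genes were divided. Of the 20 measured members 9 rose, 5 fell and 6 did not pass the test. CD40, the receptor through which T cells activate antigen-presenting cells, rose from 32.3 ± 3.47 to 107 ± 4.46 CPM (log2 fold change 1.72 ± 0.10, edgeR adjusted p = 3.70e-09), and TNFRSF10B, a receptor for the death ligand TRAIL, from 113 to 276 CPM. TNFRSF10A, the other signalling TRAIL receptor, fell from 44.4 to 23.6 CPM. TNFSF14, or LIGHT, fell from 164 ± 11.5 to 36.3 ± 4.21 CPM (log2 fold change -2.17 ± 0.12, edgeR adjusted p = 2.48e-09). TNF itself lies on 8 sequences of the annotation, so its pairs were left out and it could not be measured.

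Receptors for attractants changed mostly downward. Of the 15 measured members 4 rose, 9 fell and 2 did not pass the test (median -0.62). CCR2, by which monocytes follow CCL2, was at 7.28, 10.5 and 8.88 CPM in monocultured libraries and 0.0741, 0.0733 and 0.129 CPM in proximal ones. The proximal libraries held 4 read pairs in total and the monocultured ones 393 (log2 fold change -6.44 ± 0.36, edgeR adjusted p = 3.31e-09). CCR1 fell from 103 to 24.2 CPM and CX3CR1, the fractalkine receptor, from 27.6 to 4.89 CPM. In the other direction, PTAFR, the receptor for platelet-activating factor, was at 47.4, 44.1 and 41.8 CPM in proximal and 3.4, 6.05 and 3.53 CPM in monocultured libraries (log2 fold change 3.37 ± 0.17, edgeR adjusted p = 1.42e-09). CCR7, which guides dendritic cells to lymph nodes, rose from 10.4 to 48.7 CPM (log2 fold change 2.23 ± 0.12, edgeR adjusted p = 1.88e-09), and C3AR1, the receptor for complement C3a, from 8.63 to 26.3 CPM.

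Pattern recognition receptors went both ways. Of the 20 measured members 8 rose, 5 fell and 7 did not pass the test. CD14, the coreceptor that hands lipopolysaccharide to TLR4, was at 176, 178 and 188 CPM in proximal and 28.6, 27 and 22.1 CPM in monocultured libraries. The groups were well separated (log2 fold change 2.80 ± 0.11, edgeR adjusted p = 8.85e-11). TLR4 itself fell from 21 to 13.7 CPM, and LY96, its partner MD-2, from 1.43 to 0.32 CPM. The call of LY96 was lost without monocultured replicate 2 (-1.95, edgeR adjusted p = 0.0545). TLR8, a sensor of single-stranded RNA, rose from 1.15 to 24.4 CPM (log2 fold change 4.37 ± 0.26, edgeR adjusted p = 8.16e-09), and NOD2, a cytosolic sensor of bacterial cell wall fragments, from 2.21 to 10.8 CPM. The RNA sensors IFIH1 and DDX58 fell from 40.9 to 22.6 CPM and from 20.6 to 14.1 CPM.

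Phagocytic and scavenger receptors were mostly lower. Of the 25 measured members 3 rose, 17 fell and 5 did not pass the test (median -1.33). CD36, a scavenger receptor for oxidised lipoproteins and fatty acids (chromosome 7, 80369575 to 80679277, plus strand), was at 13.6, 10.3 and 9.56 CPM in proximal and 141, 174 and 177 CPM in monocultured libraries. Every proximal library was far below every monocultured one (log2 fold change -3.88 ± 0.17, edgeR adjusted p = 4.31e-10). ITGAM, the alpha chain of complement receptor 3, was at 40.2, 42.8 and 42.5 against 357, 360.3 and 335 CPM (log2 fold change -3.07 ± 0.09, edgeR adjusted p = 7.03e-12). MSR1, the class A scavenger receptor, fell from 51.3 to 6.45 CPM, and MERTK, which binds dying cells through PROS1 and GAS6, from 51.1 to 7.64 CPM (log2 fold change -2.74 ± 0.14, edgeR adjusted p = 1.62e-09). Its ligand PROS1 fell from 33.1 to 13.1 CPM, and MFGE8, another bridging molecule, from 57.4 to 20.9 CPM. Among Fc receptors, the high-affinity FCGR1A fell from 26.4 to 5.7 CPM and the inhibitory FCGR2B from 2.72 to 0.771 CPM, whereas the activating FCGR2A rose from 15.7 to 31.2 CPM. ITGAX, the alpha chain of complement receptor 4, was at 832 and 932 CPM and was the most abundant member not called. CD163, the haemoglobin scavenger, fell from 22.3 to 4.31 CPM.

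Complement genes were few: of the 12 measured members 4 rose, 4 fell and 4 did not pass the test. C3 rose from 339 ± 16 to 794 ± 27.4 CPM (log2 fold change 1.23 ± 0.08, edgeR adjusted p = 1.03e-08). VSIG4, a complement receptor of resident macrophages, fell from 12.8 to 2.3 CPM, and CD59, which blocks the membrane attack complex, rose from 117 to 187 CPM.

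Among signalling genes, those of the NF-kappaB list mostly rose. Of the 27 measured members 19 rose, 2 fell and 6 did not pass the test (median 0.59). NFKBIZ, a nuclear IkappaB that cooperates with p50 at cytokine genes, was at 317, 355 and 278 CPM in proximal and 23.9, 19.3 and 23.1 CPM in monocultured libraries (log2 fold change 3.84 ± 0.12, edgeR adjusted p = 2.56e-11). Its groups lay apart by more than an order of magnitude. Subunits rose less, REL from 29.5 to 130.4 CPM, NFKB1 from 84.4 to 211 CPM and RELA from 95.7 to 144 CPM. The feedback inhibitors TNFAIP3 (179.8 to 508 CPM) and TNIP3 (0.538 to 11.5 CPM) rose too. NFKBIE and MAP3K14, the kinase of the alternative pathway, fell from 164 to 136 CPM and from 23.6 to 16.7 CPM. The call of NFKBIE was lost without either of proximal replicates 1 and 2, of monocultured replicates 1 and 2 or of distal replicates 1 and 3 (-0.30 to -0.19, edgeR adjusted p = 0.0504 to 0.158). MAP3K14 lies on 2 sequences of the annotation, so its value is uncertain.

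In the JAK-STAT list, of the 21 measured members 11 rose, 2 fell and 8 did not pass the test. STAT4, the transducer of IL-12 signals, had 0 counts in monoculture and was at 10.2, 11.1 and 9.37 CPM in proximal libraries, at least 150.6-fold higher when the monocultured group is set at 3 counts in total. SOCS3, the inhibitor of IL-6 type signals, was at 186, 182 and 253 against 38.1, 27.6 and 30.3 CPM (log2 fold change 2.69 ± 0.16, edgeR adjusted p = 9.16e-09). SOCS1, the inhibitor of interferon signals, moved the other way, from 10.5, 10.5 and 7.12 CPM in monoculture to 0.593, 0.66 and 0.711 CPM (log2 fold change -3.81 ± 0.29, edgeR adjusted p = 8.56e-08). STAT3 rose from 169 to 255 CPM and JAK1 from 108 to 241 CPM.

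Genes induced by type I interferon were mostly lower. Of the 31 measured members 1 rose, 22 fell and 8 did not pass the test (median -0.70). USP18, which restrains the interferon receptor, was at 1.93, 2.64 and 1.29 CPM in proximal and 13.1, 12.1 and 8.0 CPM in monocultured libraries (log2 fold change -2.51 ± 0.26, edgeR adjusted p = 2.53e-06). RSAD2 fell from 6.19 to 1.52 CPM, MX2 from 14.2 to 4.08 CPM, IFIT1 from 10.3 to 3.42 CPM and OAS3 from 161 to 69.7 CPM. ISG20, an RNA exonuclease, was the 1 member that rose, from 3.23 to 10.4 CPM. XAF1, DDX60 and SAMD9 differed by -0.15, -0.22 and -0.24 on the log2 scale and did not pass the test. Among interferon regulatory factors, IRF8 rose from 24.7 to 52.3 CPM (log2 fold change 1.08 ± 0.09, edgeR adjusted p = 1.40e-07), IRF5 fell from 73.6 to 48.4 CPM, and IRF1 was at 56 and 49.8 CPM and was not called. IRF9 could not be measured, as it lies on 2 sequences.

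MAP kinase phosphatases and inhibitors were divided. Of the 20 measured members 9 rose, 5 fell and 6 did not pass the test. SPRY1 rose from 1.44 to 13.6 CPM and DUSP1 from 183 to 539.9 CPM (log2 fold change 1.56 ± 0.10, edgeR adjusted p = 1.94e-08), while DUSP2 fell from 148 to 24.2 CPM and DUSP7 from 482 to 147 CPM (log2 fold change -1.72 ± 0.08, edgeR adjusted p = 7.31e-10). Immediate early and dissociation genes, which respond to handling, were divided as well: 10 of 23 measured rose and 7 fell, and their sum was 2763 ± 308 CPM in proximal and 2482 ± 180 CPM in monocultured cells (exact permutation p = 0.3). EGR2 (294 to 47.4 CPM) and ATF3 (174 to 41 CPM) fell and NR4A2 (2.05 to 9.07 CPM) rose.

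Transcription factors of the myeloid lineage moved in both directions. Of the 31 measured members 10 rose, 10 fell and 11 did not pass the test (median 0.04, or -0.19 without proximal replicate 3 and -0.06 without monocultured replicate 3). CEBPA, the C/EBP factor of granulocyte and monocyte progenitors, was at 15.4, 10.6 and 27.8 CPM in proximal and 170.2, 142 and 126 CPM in monocultured libraries. The proximal libraries varied among themselves, yet all lay under the lowest monocultured value (log2 fold change -3.02 ± 0.27, edgeR adjusted p = 9.58e-07). CEBPB, the C/EBP factor of activated macrophages, was at 359, 342 and 595 and 476, 392 and 368 CPM and the groups overlapped. MAF, a factor of resident macrophages, fell from 25.7 ± 2.81 to 2.44 ± 0.382 CPM (log2 fold change -3.39 ± 0.19, edgeR adjusted p = 3.78e-09). RUNX3 was at 686, 677 and 777 against 119.6, 111 and 109 CPM (log2 fold change 2.65 ± 0.09, edgeR adjusted p = 2.62e-11), and RUNX1 rose from 179.5 to 337 CPM, but RUNX2 fell from 46 to 23.9 CPM. The progenitor factors GFI1, GATA2 and MYB fell from 64.1 to 7.44 CPM, from 49 to 9.58 CPM and from 65.4 to 16.6 CPM. ID1 rose from 2.77 to 19.9 CPM and ID2 fell from 158 to 58.8 CPM, so these 2 inhibitors of helix-loop-helix factors moved in opposite directions.

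Nuclear receptors included the lipid sensors. Of the 20 measured members 8 rose, 5 fell and 7 did not pass the test. The falls numbered 8 without proximal replicate 3, and 3 without proximal replicate 2, monocultured replicate 1 or monocultured replicate 2. NR1H3, or LXR-alpha, was at 25.3, 27 and 27.5 CPM in proximal and 184, 176 and 167 CPM in monocultured libraries (log2 fold change -2.72 ± 0.09, edgeR adjusted p = 2.93e-11). PPARG fell from 78.9 ± 4.93 to 18.4 ± 2.03 CPM (log2 fold change -2.10 ± 0.12, edgeR adjusted p = 4.39e-09). NR3C1, the glucocorticoid receptor, rose from 354 to 652 CPM (log2 fold change 0.88 ± 0.09, edgeR adjusted p = 3.44e-06), and AHR, which binds kynurenine among other ligands, from 33.2 to 89.9 CPM (log2 fold change 1.44 ± 0.10, edgeR adjusted p = 2.47e-08). PPARD, the most abundant member not called, was at 508 and 594 CPM.

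Genes of the mature dendritic cell programme had the highest share of rises among the lists examined here (78.3%). The lists were chosen with earlier results of these data known, so this rank is no independent finding. Of the 23 measured members 18 rose, 3 fell and 2 did not pass the test (median 1.46). CD80, a ligand of CD28 and CTLA4, was at 27.6, 22.7 and 19.7 CPM in proximal and 0.901, 1.07 and 1.13 CPM in monocultured libraries (log2 fold change 4.48 ± 0.22, edgeR adjusted p = 1.15e-09). LAMP3, a lysosomal protein of mature dendritic cells, was at 12.4, 9.75 and 7.17 CPM, and 2 monocultured read pairs in total give a ratio of 214.4 with a counting interval of 58.99 to 1777. CCL19, a ligand of CCR7, had 0 counts in monoculture and was at least 36.78-fold higher. TNFAIP2 rose from 218 to 762 CPM and IL15RA from 4.38 to 20.6 CPM. CD83, another marker of mature dendritic cells, was at 100.4 and 102 CPM and was not called. FSCN1, an actin bundler of the same programme, fell from 842 to 559 CPM (log2 fold change -0.59 ± 0.13, edgeR adjusted p = 0.00207).

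Antigen presentation lists held few rises. Of the 10 measured members 1 rose, 4 fell and 5 did not pass the test in the MHC class II list. CIITA, the master regulator of class II genes, was at 0.741, 0.147 and 0.582 CPM in proximal and 2.91, 1.71 and 1.57 CPM in monocultured libraries (log2 fold change -2.05 ± 0.46, edgeR adjusted p = 0.00235). CD74, the invariant chain, fell from 203 ± 14.4 to 113 ± 4.58 CPM (log2 fold change -0.85 ± 0.09, edgeR adjusted p = 3.40e-06). In the class I list, of the 14 measured members 2 rose, 3 fell (21.4%, against 23.1% over all genes tested) and 9 did not pass the test. CALR, a chaperone of class I folding, was among those that fell, from 1109 to 547 CPM. In that list 6 fell without proximal replicate 3, and 1 rose without proximal replicate 2, monocultured replicate 2 or monocultured replicate 3. Most HLA genes lie on alternative sequences of the annotation, where pairs are lost, so the listed counts of HLA-DRA (7 sequences) and HLA-E (7 sequences) say nothing about their level.

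Checkpoint and B7 family ligands were divided. Of the 16 measured members 7 rose, 5 fell and 4 did not pass the test. CD274, or PD-L1, was at 59.1, 56.4 and 43.3 against 1.32, 1.56 and 1.51 CPM (log2 fold change 5.17 ± 0.17, edgeR adjusted p = 3.28e-11), and PDCD1LG2, or PD-L2, rose from 2.99 to 8.2 CPM. ICOSLG rose from 9.77 to 31.4 CPM. HAVCR2, or TIM-3, fell from 161 ± 11.7 to 51.2 ± 5.63 CPM (log2 fold change -1.65 ± 0.10, edgeR adjusted p = 8.54e-09), VSIR, or VISTA, from 84.6 to 32.1 CPM, LGALS9 from 241 to 106 CPM and LGALS3 from 414 to 154 CPM. CD276 was at 539 and 535 CPM and was not called.

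**Figure D3:**
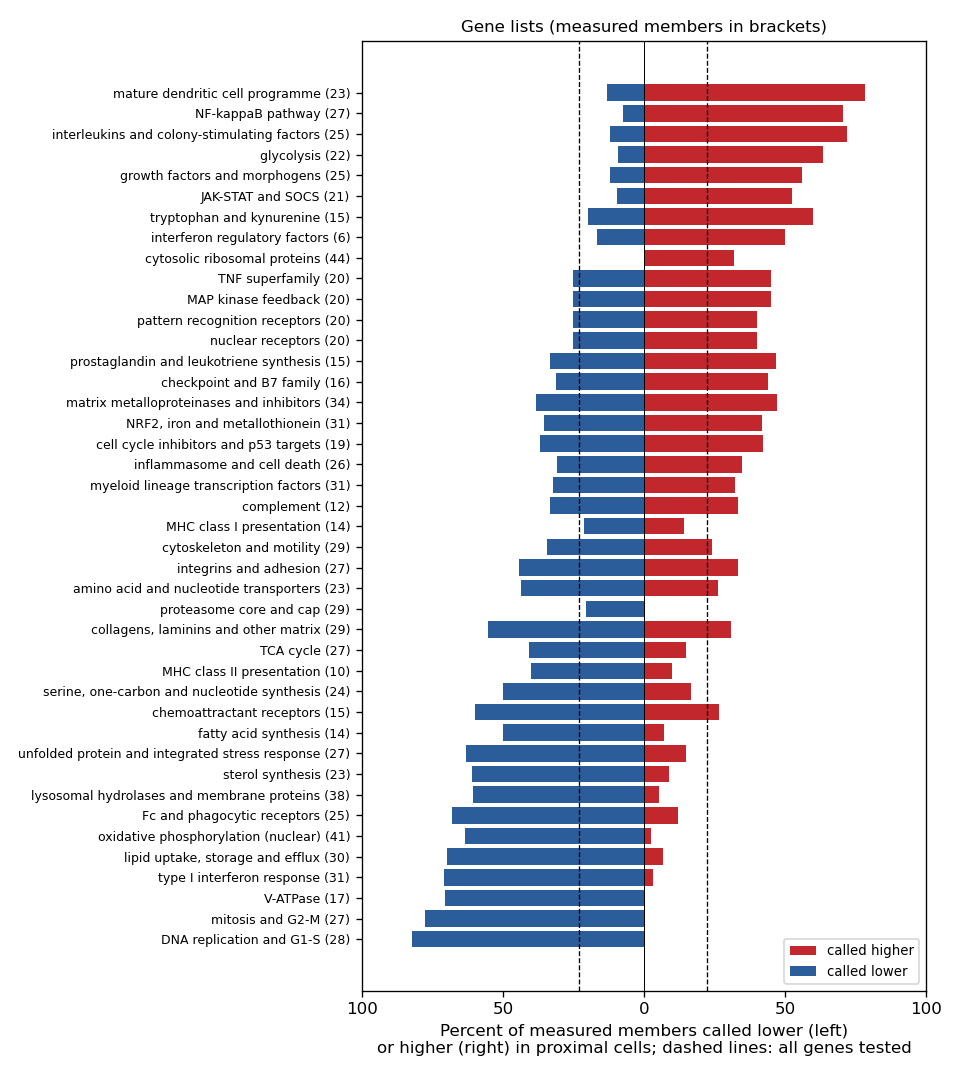
Percent of the measured members of each of 42 gene lists called higher (red, right) or lower (blue, left) in proximal macrophages, with the number measured in brackets and the shares over all genes tested (22.4% and 23.1%) as dashed lines. The mature dendritic cell, NF-kappaB and interleukin lists reach furthest to the right, and the DNA replication and mitosis lists furthest to the left, with no member called higher.

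Tryptophan breakdown genes mostly rose. IDO1, which opens the tryptophan ring, was at 85.3, 82.9 and 57.8 CPM in proximal libraries, and 2 monocultured read pairs give a ratio of 1653 with a counting interval of 457.3 to 13660. KYNU, which cleaves kynurenines, was at 269, 284 and 235 against 55.2, 60.5 and 62.4 CPM (log2 fold change 2.14 ± 0.10, edgeR adjusted p = 6.90e-10), and KMO rose from 6.15 to 10.1 CPM. The call of KMO was lost without proximal replicate 1 (0.58, edgeR adjusted p = 0.0599). HAAO and QPRT, later enzymes of NAD synthesis, fell from 8.02 to 4.86 CPM and from 104 to 35.5 CPM (log2 fold change -1.54 ± 0.15, edgeR adjusted p = 9.97e-07). CYP1B1 and TIPARP, targets of AHR, rose from 105 to 259.7 CPM and from 59.3 to 116 CPM. In all, of the 15 measured members 9 rose, 3 fell and 3 did not pass the test.

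The prostaglandin list held rises and falls. PTGS2, the inducible cyclooxygenase, was at 822, 898 and 657 CPM in proximal and 18.3, 20.6 and 17.9 CPM in monocultured libraries (log2 fold change 5.39 ± 0.14, edgeR adjusted p = 3.67e-12). PTGES, which makes prostaglandin E2 from its product, rose from 0.302 to 10.4 CPM (log2 fold change 5.10 ± 0.43, edgeR adjusted p = 2.95e-07), and the receptor PTGER2 from 7.2 to 31.6 CPM. PTGS1, the constitutive cyclooxygenase, was at 225, 210.2 and 236 against 908, 919 and 873 CPM (log2 fold change -2.01 ± 0.08, edgeR adjusted p = 1.15e-10). PTGDS, the prostaglandin D2 synthase, had 1 read pair in the proximal libraries together and 113 in the monocultured ones. LTA4H, which makes leukotriene B4, fell from 241 to 121 CPM. Of the 15 measured members 7 rose, 5 fell and 3 did not pass the test. With a filter of 50 counts in 3 libraries, 2 fell.

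Lipid handling genes were mostly lower. Of the 30 measured members 2 rose, 21 fell and 7 did not pass the test (median -0.80). LPL, lipoprotein lipase, was at 38.6, 32.4 and 29.1 CPM in proximal and 339, 395 and 388 CPM in monocultured libraries (log2 fold change -3.49 ± 0.13, edgeR adjusted p = 5.59e-11). LIPA, the lysosomal acid lipase (chromosome 10, 89213569 to 89414557, minus strand), was at 71.3, 79.7 and 60.6 against 483, 556 and 529 CPM, with no overlap (log2 fold change -2.89 ± 0.12, edgeR adjusted p = 2.16e-10). APOE fell from 244 ± 35.8 to 33.4 ± 1.65 CPM (log2 fold change -2.87 ± 0.13, edgeR adjusted p = 6.99e-10) and APOC1 from 239.9 to 27.1 CPM. ABCG1, a cholesterol exporter and LXR target, fell from 24.2 to 6.34 CPM, while ABCA1, another, was at 523 and 476 CPM and was the most abundant member not called. CPT1A, which brings fatty acids into mitochondria, fell from 69.2 to 26.3 CPM. OLR1, a receptor for oxidised LDL, and PNPLA2, a triglyceride lipase, were the members that rose, from 23.5 to 43.5 CPM and from 105 to 145 CPM. The call of PNPLA2 was lost without proximal replicate 3 (0.27, edgeR adjusted p = 0.057) and without monocultured replicate 3 (0.36, edgeR adjusted p = 0.0874).

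Sterol synthesis genes were mostly lower. Of the 23 measured members 2 rose, 14 fell and 7 did not pass the test in the sterol list (median -0.57). ACAT2 fell from 27.5 to 7.38 CPM (log2 fold change -1.90 ± 0.16, edgeR adjusted p = 2.64e-07). SQLE was at 1074 and 1173 CPM and was not called, and DHCR7 rose from 38 to 62.9 CPM. In the fatty acid list, of the 14 measured members 1 rose, 7 fell and 6 did not pass the test, and 3 rose with the GC trend removed. SCD, which makes monounsaturated fatty acids, fell from 967 ± 52.1 to 317 ± 7.49 CPM (log2 fold change -1.61 ± 0.08, edgeR adjusted p = 1.05e-09), and MLXIPL, the glucose-sensing factor ChREBP, from 37.3 to 5.07 CPM (log2 fold change -2.87 ± 0.16, edgeR adjusted p = 3.30e-09).

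Glycolytic genes were mostly higher. Of the 22 measured members 14 rose, 2 fell and 6 did not pass the test (median 0.43). SLC2A1, the glucose transporter GLUT1, was at 889, 866 and 1020.5 CPM in proximal and 279, 252 and 245 CPM in monocultured libraries (log2 fold change 1.84 ± 0.09, edgeR adjusted p = 1.39e-09). PFKFB3, which makes the activator of phosphofructokinase, rose from 136 ± 9.62 to 347 ± 42 CPM (log2 fold change 1.35 ± 0.10, edgeR adjusted p = 7.46e-08), ALDOC from 26.7 to 100.2 CPM and PGK1 from 720.1 to 1169.6 CPM. PKM was at 3727 and 4016 CPM and was not called. HK3, a hexokinase of myeloid cells, fell from 7.14 to 1.35 CPM. LDHA lies on 2 sequences and could not be measured. FBP1, which runs the opposite step in gluconeogenesis, was among the 15 largest falls, at 0.963, 0.733 and 0.711 against 27.5, 30.2 and 30.4 CPM (log2 fold change -5.19 ± 0.20, edgeR adjusted p = 1.01e-10).

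Nuclear genes of the respiratory chain were mostly lower. Of the 41 measured members 1 rose, 26 fell and 14 did not pass the test in the respiratory chain list (median -0.48). COX5B, a subunit of complex IV, was at 55.4, 57.3 and 85.6 CPM in proximal and 271, 191 and 244 CPM in monocultured libraries (log2 fold change -1.83 ± 0.19, edgeR adjusted p = 2.66e-06). ATP5F1A and ATP5MC3 of the ATP synthase fell from 467 to 282 CPM and from 184 to 92 CPM, and NDUFB3 of complex I from 33.6 to 18.2 CPM. UQCRC1, at 569 and 640.1 CPM, was not called.

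Of the 13 genes encoded in mitochondrial DNA 3 were called higher (23.1%, close to the 22.4% over all genes tested) and 0 lower. The 13 genes summed to 30200 to 38330 CPM in proximal and 29770 to 33970 CPM in monocultured libraries (exact permutation p = 0.3). No member was called higher without proximal replicate 1 or without monocultured replicate 1, 1 was without proximal replicate 2, and 8 were without proximal replicate 3, where 1 fell. The count was 2 without any other single library.

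In the TCA cycle list, of the 27 measured members 4 rose, 11 fell and 12 did not pass the test. ACOD1, which diverts aconitate to itaconate, rose from 0.207 to 4.36 CPM (log2 fold change 4.37 ± 0.38, edgeR adjusted p = 3.69e-07), and PDK1, which shuts pyruvate dehydrogenase, from 30.6 to 73 CPM (log2 fold change 1.25 ± 0.12, edgeR adjusted p = 8.60e-07). IDH2 and MDH1 fell from 157 to 65.1 CPM and from 194 to 82.5 CPM. CS, citrate synthase, rose from 145 to 178 CPM.

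Genes of amino acid transport and synthesis moved both ways. SLC7A2, an arginine transporter, was at 38.5, 35 and 29.1 CPM in proximal and 1.18, 0.925 and 0.819 CPM in monocultured libraries (log2 fold change 5.13 ± 0.18, edgeR adjusted p = 4.55e-11). SLC7A7, the light chain of an arginine exporter, rose from 35.5 to 237 CPM (log2 fold change 2.74 ± 0.08, edgeR adjusted p = 1.40e-11), whereas the arginine importer SLC7A1 fell from 253 to 154 CPM. SLC29A3, a lysosomal nucleoside transporter, fell from 68.2 ± 7.57 to 8.48 ± 0.821 CPM (log2 fold change -3.01 ± 0.13, edgeR adjusted p = 2.14e-10). In the transporter list, of the 23 measured members 6 rose, 10 fell and 7 did not pass the test. In the list of serine, one-carbon and nucleotide synthesis, of the 24 measured members 4 rose, 12 fell and 8 did not pass the test. PHGDH and PSAT1, the first enzymes of serine synthesis, fell from 52.7 ± 12.7 to 9.91 ± 0.252 CPM (log2 fold change -2.41 ± 0.16, edgeR adjusted p = 3.09e-08) and from 39.8 to 4.66 CPM, and MTHFD1 from 130.0 to 41.8 CPM. PAICS, of purine synthesis, rose from 85.6 to 129 CPM.

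Lysosomal genes were mostly lower. Of the 38 measured members 2 rose, 23 fell and 13 did not pass the test (median -0.36). The rises numbered 1 without proximal replicate 1, monocultured replicate 2 or monocultured replicate 3, and 4 with the GC trend removed. GM2A, the activator of ganglioside breakdown, was at 147, 137 and 119 CPM in proximal and 566, 617 and 604 CPM in monocultured libraries (log2 fold change -2.15 ± 0.09, edgeR adjusted p = 2.16e-10). CTSL fell from 1726 ± 55.1 to 528 ± 54.8 CPM (log2 fold change -1.71 ± 0.09, edgeR adjusted p = 2.04e-09), ASAH1, acid ceramidase, from 374 to 139.9 CPM and CTSD from 942 to 436 CPM. CTSS, the cathepsin that trims the invariant chain, rose from 533 to 689 CPM. The membrane proteins LAMP1 and LAMP2 were at 388 and 412 CPM and at 241 and 236 CPM, and neither was called. The proton pump that acidifies lysosomes followed: of the 17 measured members 0 rose, 12 fell and 5 did not pass the test (median -0.51), with ATP6V1H falling from 322 ± 17.9 to 117 ± 10.8 CPM (log2 fold change -1.47 ± 0.09, edgeR adjusted p = 1.42e-08). Proteasome genes changed less. Of the 29 measured members 0 rose, 6 fell (20.7%, against 23.1% over all genes tested) and 23 did not pass the test. Their median was -0.06, and 3 fell without proximal replicate 1 or without monocultured replicate 3.

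**Figure D4:**
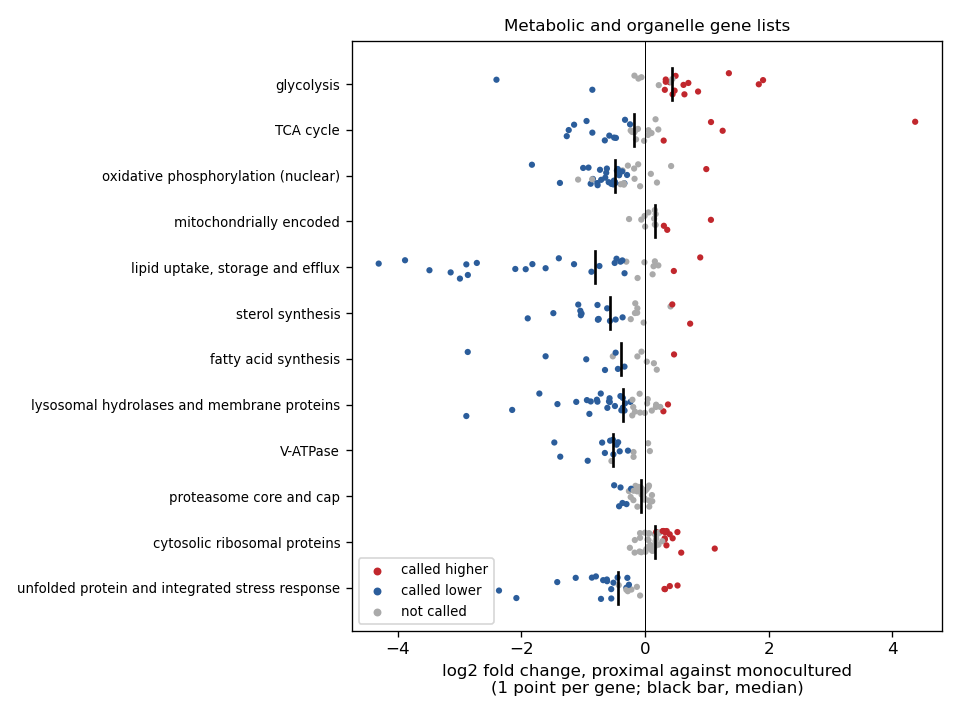
The log2 fold change of each measured gene (1 point each) in 12 metabolic and organelle lists, coloured by call, with the list's median as a black bar. Glycolysis lies mostly to the right of 0, and lipid handling, the nuclear respiratory chain genes, lysosomal genes and V-ATPase to the left, while the mitochondrially encoded and proteasome genes lie close to 0.

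Most cytosolic ribosomal protein genes were not called. Of the 44 measured members 14 rose, 0 fell and 30 did not pass the test, with a median of 0.16 on the log2 scale. Without proximal replicate 3, 13 rose, 4 fell and the median was 0.09. RPS20 rose from 406 ± 20.1 to 609 ± 17.3 CPM (log2 fold change 0.58 ± 0.07, edgeR adjusted p = 1.44e-05). The elongation factors EEF1A1 (7536 to 9680.1 CPM) and EEF2 (2567 to 3487 CPM) were among the 12 genes that gained the most CPM.

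Protein folding and stress genes were mostly lower. Of the 27 measured members 4 rose, 17 fell and 6 did not pass the test (median -0.44). The rises numbered 2 without proximal replicate 2 or without monocultured replicate 1. CHAC1, a glutathione-degrading target of ATF4, was at 1.7, 2.93 and 2.46 CPM in proximal and 11.6, 16.6 and 8.44 CPM in monocultured libraries (log2 fold change -2.36 ± 0.26, edgeR adjusted p = 4.65e-06). The chaperones HSP90B1, PDIA6 and HSPA5 fell from 458 to 286 CPM, from 249.7 to 144 CPM and from 702 to 575 CPM. XBP1 and PPP1R15A rose from 137 to 181 CPM and from 226 to 325 CPM, the latter not passing the test without monocultured replicate 2 (0.45, edgeR adjusted p = 0.0715), and ATF4 was at 298 and 326 CPM and was not called.

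Metal and redox genes moved both ways. All 5 measured metallothioneins, small proteins that bind zinc and copper, rose. MT2A was at 309, 341 and 249.5 CPM in proximal and 7.63, 5.19 and 6.36 CPM in monocultured libraries (log2 fold change 5.55 ± 0.17, edgeR adjusted p = 1.81e-11). The others were MT1X, which rose from 2.99 to 54.5 CPM, MT1E from 5.07 to 67.5 CPM, MT1F from 4.41 to 38.3 CPM and MT1G from 1.3 to 21.8 CPM. The zinc and iron importers SLC39A14 and SLC39A8 rose from 480.3 ± 14.3 to 1899 ± 48.2 CPM (log2 fold change 1.98 ± 0.07, edgeR adjusted p = 4.55e-11) and from 12.4 to 73.4 CPM. SOD2, the mitochondrial superoxide dismutase, was at 2547, 2757 and 2660.4 against 367, 347 and 346 CPM (log2 fold change 2.91 ± 0.07, edgeR adjusted p = 3.08e-12), whereas the cytosolic SOD1 fell from 105 to 79.4 CPM.

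Iron storage and haem genes were mixed. HMOX1, which breaks down haem, was at 76.9, 78.2 and 109 CPM in proximal and 499, 469 and 468 CPM in monocultured libraries (log2 fold change -2.44 ± 0.14, edgeR adjusted p = 5.39e-09). FTL, the ferritin light chain, lost more CPM than any other called gene, from 7885 ± 659 to 4539.5 ± 119.5 CPM (log2 fold change -0.80 ± 0.08, edgeR adjusted p = 1.41e-06). FTH1, the heavy chain, was at 5046, 4410.0 and 7918 CPM in proximal libraries and 4622, 4455 and 3819.9 CPM in monocultured ones. The groups overlapped and replicate 3 was the highest. The log2 fold change was 0.43 with all libraries (edgeR adjusted p = 0.0493) and 0.14 without proximal replicate 3 (edgeR adjusted p = 0.217). Its counts are uncertain as well, since 36.78% of its exonic bases are free of other genes. GCLC, the rate-limiting enzyme of glutathione synthesis, fell from 191 to 83.6 CPM, and NQO1, another NRF2 target, rose from 57.1 to 92.1 CPM. In the whole list, of the 31 measured members 13 rose, 11 fell and 7 did not pass the test.

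Death and inflammasome genes showed no common direction. Of the 26 measured members 9 rose, 8 fell and 9 did not pass the test. Without proximal replicate 1 or without monocultured replicate 1, 5 fell. CASP1 rose from 17.5 ± 1.76 to 61.3 ± 7.81 CPM (log2 fold change 1.80 ± 0.12, edgeR adjusted p = 3.70e-08), CASP5 from 0.181 to 4.78 CPM and NLRP3 from 85 to 144 CPM, while NLRC4 and the adaptor PYCARD fell from 6.18 to 3.08 CPM and from 29.6 to 18.7 CPM. PYCARD has 40.3% of its exonic bases free of other genes and is uncertain. The survival gene BCL2A1 rose from 88.7 to 243 CPM, BCL2L1 fell from 68.1 to 41.8 CPM, and MCL1 was at 1582 and 1654 CPM and was not called. MLKL, the executor of necroptosis, fell from 21.1 ± 1.19 to 6.93 ± 1.25 CPM (log2 fold change -1.61 ± 0.16, edgeR adjusted p = 2.13e-06).

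In the lists of DNA replication and mitosis every called gene was lower. In the DNA replication list, of the 28 measured members 0 rose, 23 fell and 5 did not pass the test (median -0.63). In the mitosis list, of the 27 measured members 0 rose, 21 fell and 6 did not pass the test (median -0.72). CDC20, the activator of the anaphase-promoting complex, was at 24.3, 23.1 and 25.8 CPM in proximal and 89.2, 76.2 and 82.3 CPM in monocultured libraries (log2 fold change -1.76 ± 0.10, edgeR adjusted p = 3.31e-09). CDT1, which loads the replicative helicase, fell from 14.2 ± 3.67 to 4.92 ± 1.11 CPM (log2 fold change -1.51 ± 0.21, edgeR adjusted p = 4.36e-05). MKI67 fell from 65.5 ± 3.17 to 47.7 ± 7.82 CPM (log2 fold change -0.46 ± 0.11, edgeR adjusted p = 0.00492) and PLK1 from 17 to 8.59 CPM. Among inhibitors, CDKN2C, or p18, fell from 67 to 12.8 CPM (log2 fold change -2.38 ± 0.14, edgeR adjusted p = 7.66e-09). CDKN1A, or p21, stood at 1857, 1943 and 2344 CPM and 2184, 1921 and 1970.2 CPM, and the groups overlapped.

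Cell cycle and progenitor genes were also lower in the proximal than in the distal gate, the other sort of the same coculture. Over all genes, 1296 were higher in proximal than in distal cells (8.4% of those tested) and 1223 lower (7.93%). Both comparisons use the same proximal libraries, so a gene that is low in these libraries tends to be lower in both. The share of all genes lower than in monoculture that were also lower than in the distal gate is not given here. Counts of genes lower in both, here and among the families below, therefore stand without that background. The counts against the distal gate depended on single libraries, with 757 higher and 768 lower without distal replicate 3 and 816 higher without distal replicate 1, and with upper-quartile scaling 816 were higher, 34.2% of the calls against 51.4%. Against the distal gate alone, 18 of the 28 measured DNA replication genes and 25 of the 27 measured mitosis genes were lower. Of the 23 DNA replication genes lower than in monoculture, 18 were also lower than in the distal gate, and of 21 mitosis genes 21 were. CDC20 was at 75.5 CPM in distal cells, against 24.4 in proximal and 82.6 in monocultured cells, and the log2 fold change from distal was -1.63 ± 0.10 (edgeR adjusted p = 4.77e-07). MKI67 was at 93.1 CPM in distal cells, above its monocultured 65.5. ERBB2 was also highest in the distal gate, at 39.8 CPM against 17.3 in proximal and 1.52 in monocultured cells. Which cells its RNA came from was not tested. The part of tumour cell RNA in the distal levels of cell cycle and progenitor genes was not tested. GATA2 and MYB were at 54.1, 50.4 and 56.2 and 70.8, 90.9 and 82.8 CPM in the distal libraries, near their monocultured levels of 49 and 65.4, and their log2 fold changes from distal to proximal were -2.48 ± 0.15 and -2.30 ± 0.12 (edgeR adjusted p = 6.20e-07 and 1.22e-07). Of the 10 lineage factors that fell against monoculture 8 were also lower than in the distal gate. Of 21 lipid handling genes that fell, 2 were also lower and 4 were higher than in the distal gate, and 15 did not pass that test.

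**Figure D5:**
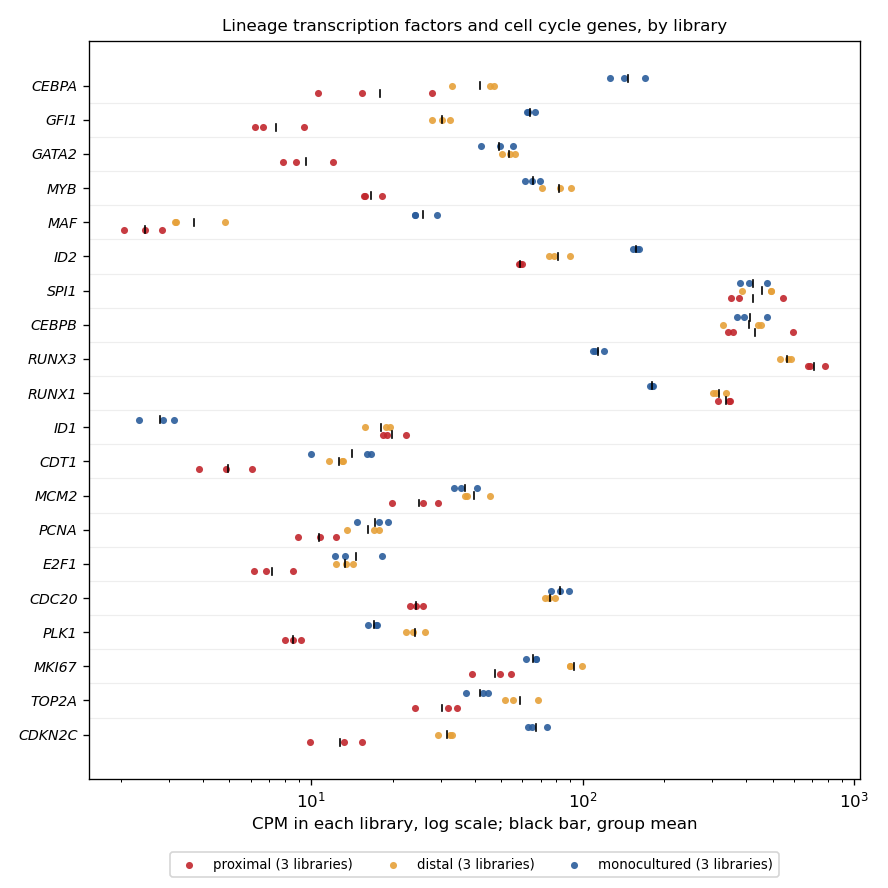
CPM on a log scale of 11 lineage transcription factors and 9 cell cycle genes in each of the 9 libraries (1 point per library, black bars the group means). For GATA2, MYB and CDC20 the distal libraries (orange) lie close to the monocultured ones (blue) and the proximal libraries (red) lie lower, while for MAF and RUNX3 both gates lie on the same side of monoculture and SPI1 and CEBPB overlap in all groups.

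Matrix-degrading enzymes moved in both directions. Of the 34 measured members 16 rose, 13 fell and 5 did not pass the test. MMP9, gelatinase B, was at 1899.7, 1942 and 2607 CPM in proximal and 5863, 5556 and 4830.3 CPM in monocultured libraries, with no overlap (log2 fold change -1.33 ± 0.12, edgeR adjusted p = 7.33e-07). MMP8, a collagenase, rose from 41.9 ± 1.79 to 216 ± 29.5 CPM (log2 fold change 2.37 ± 0.12, edgeR adjusted p = 1.58e-09), and the membrane-bound MMP14 from 3470.3 to 4722 CPM. The inhibitors also split: TIMP1 rose from 739 to 1236 CPM, while TIMP3 and TIMP2 fell from 793 to 197 CPM and from 147 to 47.1 CPM (log2 fold change -2.01 ± 0.09, edgeR adjusted p = 6.99e-10 for TIMP3). SERPINE2, a secreted protease inhibitor, rose from 30.6 to 141 CPM. ADAMTS8 and ADAMTS15, secreted proteases of proteoglycans, were among the 15 largest falls, from 60.2 to 0.564 CPM and from 21.6 to 0.538 CPM.

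Adhesion receptors moved both ways. ITGA1, the collagen-binding integrin alpha 1 (chromosome 5, 52787916 to 52959209, plus strand), was at 535, 598 and 419.7 CPM in proximal and 6.24, 6.61 and 6.55 CPM in monocultured libraries. The lowest proximal library was far above the highest monocultured one (log2 fold change 6.32 ± 0.15, edgeR adjusted p = 2.28e-12). ITGA3 and ITGA6, which bind laminin, fell from 149 to 25.1 CPM and from 95.7 to 31.6 CPM. CD44, the hyaluronan receptor, rose from 844 ± 36.6 to 2189 ± 124 CPM (log2 fold change 1.38 ± 0.07, edgeR adjusted p = 2.65e-09), and ITGB8, which frees TGF-beta from its latent complex, from 21.2 to 102 CPM. ITGB2, the beta chain of the leukocyte integrins, was at 4314 and 4313 CPM and was not called, although its partners ITGAM and ITGAL fell from 351 to 41.9 CPM and from 244 to 136 CPM. Of the 27 measured members 9 rose, 12 fell and 6 did not pass the test.

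Matrix genes were lower more often than higher. Of the 29 measured members 9 rose, 16 fell and 4 did not pass the test. THBS1, an adhesive glycoprotein that activates TGF-beta, was at 57.2, 66.3 and 53.9 against 2.7, 3.2 and 3.46 CPM (log2 fold change 4.24 ± 0.14, edgeR adjusted p = 2.36e-11). COL6A3 fell from 294 ± 8.68 to 53.5 ± 4.35 CPM (log2 fold change -2.46 ± 0.09, edgeR adjusted p = 8.83e-11), COL6A1 from 1026 to 608 CPM and LAMA3 from 24.3 to 1.14 CPM, while COL1A1 rose from 17.9 to 56.2 CPM and SPP1, osteopontin, from 473 to 619 CPM. Fibroblasts are not part of this culture, and COL1A2 and COL3A1 had 0 counts in all 6 libraries. In the cytoskeleton list, of the 29 measured members 7 rose, 10 fell and 12 did not pass the test, and 11 rose with the GC trend removed. MARCKS, which links actin to the membrane, was at 374, 379 and 440.4 CPM in proximal and 28.5, 25.2 and 24.1 CPM in monocultured libraries (log2 fold change 3.94 ± 0.11, edgeR adjusted p = 4.32e-12), and EZR fell from 106 to 45 CPM.

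Several of the largest rises belong to none of these lists. SERPINB7 and SERPINA9, protease inhibitors, had 0 counts in monoculture and were at 22.6, 18.2 and 17.3 and 7.78, 7.84 and 6.85 CPM in proximal libraries, at least 284.5-fold and 110.3-fold higher. SERPINB4 had 1 read pair in monoculture and 684 in proximal cells, a ratio of 712 with a counting interval of 127.4 to 28160. RIPOR2, an inhibitor of RHOA, had 1 monocultured pair and was at 49.4, 47.9 and 44.9 CPM. CCL1, a ligand of CCR8, was at 83.1, 77.6 and 79.8 CPM against 0.624, 0.498 and 0.756 CPM (log2 fold change 6.97 ± 0.17, edgeR adjusted p = 2.28e-12), and C1QTNF1, a secreted C1q relative, rose from 0.27 to 45.6 CPM. CXCL8, a neutrophil attractant (chromosome 4, 73740541 to 73743716, plus strand), was second to IL1B in CPM gained, at 20940.0, 24459 and 17912 against 4722, 5014 and 5539.6 CPM (log2 fold change 2.05 ± 0.11, edgeR adjusted p = 2.86e-09).

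Among the largest falls outside the lists, FA2H, which hydroxylates fatty acids, was at 0.148, 0.44 and 1.29 CPM in proximal and 39.7, 39.2 and 33.7 CPM in monocultured libraries (log2 fold change -5.83 ± 0.32, edgeR adjusted p = 3.62e-09). CRABP2, a retinoic acid carrier, fell from 26.9 ± 1.93 to 0.848 ± 0.462 CPM (log2 fold change -4.95 ± 0.26, edgeR adjusted p = 2.09e-09). HSPB7, a small heat shock protein, fell from 51.8 to 1.32 CPM, METTL7B from 82.7 to 3.08 CPM, and INHBE, an activin-type chain, from 36.7 to 1.25 CPM. VIPR1, a receptor for vasoactive intestinal peptide, fell from 9.26 to 0.181 CPM and ADRA2B, an adrenergic receptor, from 13.6 to 0.421 CPM. The potassium channel gene KCNJ1 fell from 17.5 to 0.695 CPM and the muscle-type gene TRIM54 from 41.9 to 1.41 CPM. CHI3L1, a secreted chitinase-like protein, was among the 12 that lost the most CPM, at 2162, 2119.6 and 2145 against 4464, 4082 and 4000.2 CPM, with no overlap (log2 fold change -0.96 ± 0.07, edgeR adjusted p = 7.23e-08).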

How the data were processed

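RNA of 3 proximal, 3 distal and 3 monocultured THP-1 libraries was measured. The authors deposited counts of read pairs per gene name, not normalized. Per the file headers, featureCounts 1.6.3 counted exons of GENCODE 36 without strand and dropped pairs that mapped to, or overlapped, more than 1 place or gene, so reads of overlapping and antisense genes cannot be told apart. Per the submitters' processing notes, Trim Galore 0.6.5, STAR 2.7.6a, GRCh38.p13, R 4.1.3 and DESeq2 1.34.0 were used. Coordinates are GRCh38.

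Here edgeR 4.0.16 (R 4.3.3, limma 3.58.1) fitted a robust quasi-likelihood model to all 9 libraries, after filterByExpr (10 counts, total 15) and TMM scaling, with Benjamini-Hochberg adjustment over 15427 genes. The biological coefficient of variation was 11.6% with 6 residual degrees of freedom. The code was tested on simulated data. Standard errors are the log2 fold change over the root of F. Counting intervals cover counting error only. Tables and figures were made in Python 3.11.15 with matplotlib 3.10.9 and pandas 2.3.3.

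Genes were named by rule: the 15 largest rises and 15 largest falls without overlap and at least 5 CPM in the higher group, the 12 genes each gaining or losing the most CPM, up to 4 called members per list by p and the most abundant member not called, and marker genes. By this rule 259 genes were named, and 107 others in the text were chosen after their values were seen. Some genes of the rule are not reported here. The members and lists were chosen with earlier results of these data known. Alternatives were DESeq2 1.42.0, voom, other scaling and filters, a replicate block, 2-group fits, each library left out and, added after seeing the data, removal of a GC trend and restriction to genes on 1 sequence whose exons overlap other genes over less than 50% of their bases.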

Additional observations from a re-analysis of the deposited data

How the results depend on the processing

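Against monoculture, the calls numbered 3379 to 3623 higher and 3442 to 3682 lower under other scalings, no filter, DESeq2 and voom, 2849 and 2972 with the stricter filter, 3241 and 3377 with only those groups fitted, and 4227 and 4160 with the GC trend removed. With 1 library left out they ranged from 2907 to 3836 higher and from 3061 to 3981 lower. Against the distal gate the calls were less stable: 816 higher with upper-quartile scaling (34.2% of calls higher, against 51.4%), 815 with only proximal and distal libraries fitted, 2589 with the GC trend removed, and, with 1 library left out, 757 to 1897 higher and 768 to 1558 lower. The extremes were reached without distal replicate 3 (757 and 768) and without proximal replicate 3 (1897 and 1558). Leaving out distal replicate 1 gave 816 higher. Libraries of a group differed in how their deviation from the mean over all 9 libraries followed GC percent. The Spearman correlations were -0.28, -0.34 and 0.31 in proximal replicates 1 to 3 and 0.22, -0.33 and 0.19 in distal ones. The cause of the unstable counts was not tested. The summed tumour marker ratio went from 0.11 to -1.22 on the log2 scale without NT5E and LAMC1, which both rose. TGM2, which fell, supplied most of the remaining monocultured sum.

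The deviations of same-numbered proximal and monocultured libraries from their group means correlated at -0.159, 0.095 and -0.145. Those of differently numbered libraries correlated at -0.172 to 0.275. Such correlations cannot show whether the samples were paired, because the deviations from a mean of 3 sum to 0. With the replicate block, 3497 genes were higher and 3671 lower than in monoculture, and 1371 and 1249 than in the distal gate. Over 366 named genes and 6941 values under alternatives, 54 values of 15 genes lost their call, 39 values of 24 genes gained one and none changed sign. Among these, FTH1, MT-ATP8, MT-CYB, MT-ND1, IRF3, PSMC1, NFKBIE, PNPLA2, KMO, LY96 and PPP1R15A lost theirs without some library, CTSD and YBX1 with no filter and ACTB with the GC trend removed. List medians near 0 changed sign for MAP kinase feedback, lineage factors, checkpoint ligands, cytoskeleton and prostaglandin synthesis under some alternatives. At this depth genes with few counts in both groups were filtered out and not tested.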

Other observations

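Families defined by the start of the gene symbol were looked at after the calls were known and carry no test of their own. Of 11 measured HOX genes, positional transcription factors that leukaemia lines often express, 0 rose and 8 fell (median log2 fold change -1.16), and 6 were also lower than in the distal gate. HOXA10 fell from 9.09 to 3.81 CPM. Of 17 serpins, protease inhibitors, 11 rose and 4 fell (median 0.92). Of 23 semaphorins and plexins, guidance ligands and their receptors, 13 rose and 5 fell, with SEMA6D rising from 0.371 to 22.8 CPM. Of 7 P2 receptors for extracellular nucleotides, 3 rose and 4 fell, and P2RX7, the ATP-gated channel upstream of the inflammasome, rose from 11.5 to 34.5 CPM.

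Of 16 aminoacyl-tRNA synthetases 0 rose and 8 fell (median -0.29), and of 73 mitochondrial ribosomal protein genes 2 rose and 21 fell (median -0.15), a share of falls to be read against 23.1% over all genes. Of 12 siglecs, sialic acid receptors of leukocytes, 1 rose and 7 fell, and of 11 sialyltransferases, which make their ligands, 2 rose and 5 fell. Of 42 potassium channel genes 10 rose and 19 fell, to be read against 22.4% and 23.1% over all genes.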
